A study of Mus musculus with 8 samples.

Results

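The cytosolic ribosomal protein genes code for the proteins of the 40S and 60S ribosomal subunits. They were taken as every gene symbol of the array's annotation that starts with Rpl or Rps and a digit, plus Rplp0, Rplp1, Rplp2 and Rpsa, without the S6 kinases (Rps6k) and Rps19bp1. The annotation held 90 such symbols. A transcript cluster is the unit the array reports, a group of probes summarised to 1 value. Of the 90 symbols, 64 had a cluster that names them alone, among 19933 genes in all, and 63 were above the floor of 22.6 (4.50 on the log2 scale) that kept 14950 genes for testing. The 64th, Rpl39l, read 3.30 to 3.65 on the log2 scale over all arrays and was not tested. The remaining 26 symbols occurred only in clusters that list several symbols and are not described by name.

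Hearts came from 4 wild type (WT) mice and 4 mice that the labels call MCH3-KO (KO), in which HDAC3, a histone deacetylase that works in nuclear co-repressor complexes, was deficient. All 8 were male C57BL/6 mice aged 6 weeks, fed normal chow, and their hearts were frozen in liquid nitrogen before Trizol extraction of total RNA. The RNA of each heart was hybridised to 1 Affymetrix Mouse Gene 1.0 ST array. The labels do not expand the name MCH3, nor do they say which cells of the heart lost HDAC3 or what drove the deletion.

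Each mature ribosome holds 1 copy of nearly every ribosomal protein, so these genes are usually expressed together and at high levels in every cell type. In mammals their mRNAs start with a C followed by a run of pyrimidines, the 5′ TOP (terminal oligopyrimidine) motif, through which growth signals control their translation. Many of their promoters lack a TATA box, and ribosomal protein mRNAs are copied back into the genome often, which leaves many near-identical processed pseudogenes.

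The sequence around the start site is shown for 6 members, 15 bases on each side, so that the pyrimidine runs can be read beside the values. The first 3 rose in KO hearts and hold a run, and Rpsa rose and holds none. Rps6 did not pass the test and holds a run, and Rpl3l, a striated-muscle paralogue, holds none. The rise of Rpl38 was read by a cluster away from the gene, and the cluster at the gene itself differed by -0.038. The run of Rps25 lies wholly before the listed start, so it is not the 5′ end of an mRNA from that start. Sequences are from RefSeq on GRCm38.p6, written 5′ to 3′ on the gene's strand, and capitals mark pyrimidine runs of 6 bases or more.
Rpl38, chr11:114668565-114668594, plus strand: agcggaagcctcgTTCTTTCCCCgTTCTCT
Rps18, chr17:33955651-33955680, minus strand: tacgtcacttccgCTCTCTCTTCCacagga
Rps25, chr9:44407699-44407728, plus strand: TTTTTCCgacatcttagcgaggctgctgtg
Rpsa, chr9:120127751-120127780, plus strand: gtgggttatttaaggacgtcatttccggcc
Rps6, chr4:86857353-86857382, minus strand: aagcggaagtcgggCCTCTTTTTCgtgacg
Rpl3l, chr17:24727811-24727840, plus strand: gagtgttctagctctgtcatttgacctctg

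Hdac3 was lower in the KO arrays, as the labels require. It read 10.04 to 10.20 (log2 intensity) in WT and 8.50 to 8.59 in KO, a difference of -1.54 (SE 0.05, limma adjusted p = 9.19e-08), which left 34.4% of the WT level. The arrays' median intensities lay between 54.1 and 56.5. All 14 tested heart muscle markers were bright, with mean levels of 11.7 to 13.5 on the log2 scale.

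Ribosomal protein genes were mostly a little higher in KO hearts. Of the 63 tested, 21 rose and 1 fell at a limma adjusted p under 0.05 (Benjamini-Hochberg over all genes tested), which is 33.3% higher and 1.59% lower. Among all genes tested, 10.8% were higher and 13.9% were lower, 24.6% in either direction. The median difference of the members was 0.15 on the log2 scale, a rise of 10.9%, against -0.01 over all genes, and 55 of the 63 differences were above 0. All 4 KO values lay above all 4 WT values for 28 members and below them for 1, where 11.7% of all genes were without overlap in the upward direction and 16.8% in the downward one. At an adjusted p under 0.01, 10 members rose (6.43% of all genes) and 0 fell (8.35%), and with each array centred on its median 17 rose (9.07%) and 1 fell (15.8%). The changes were small: 1 member differed by more than 1.5-fold. These are whole hearts, so fewer or more cells of a type and less or more RNA per cell cannot be told apart.

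**Figure D1:**
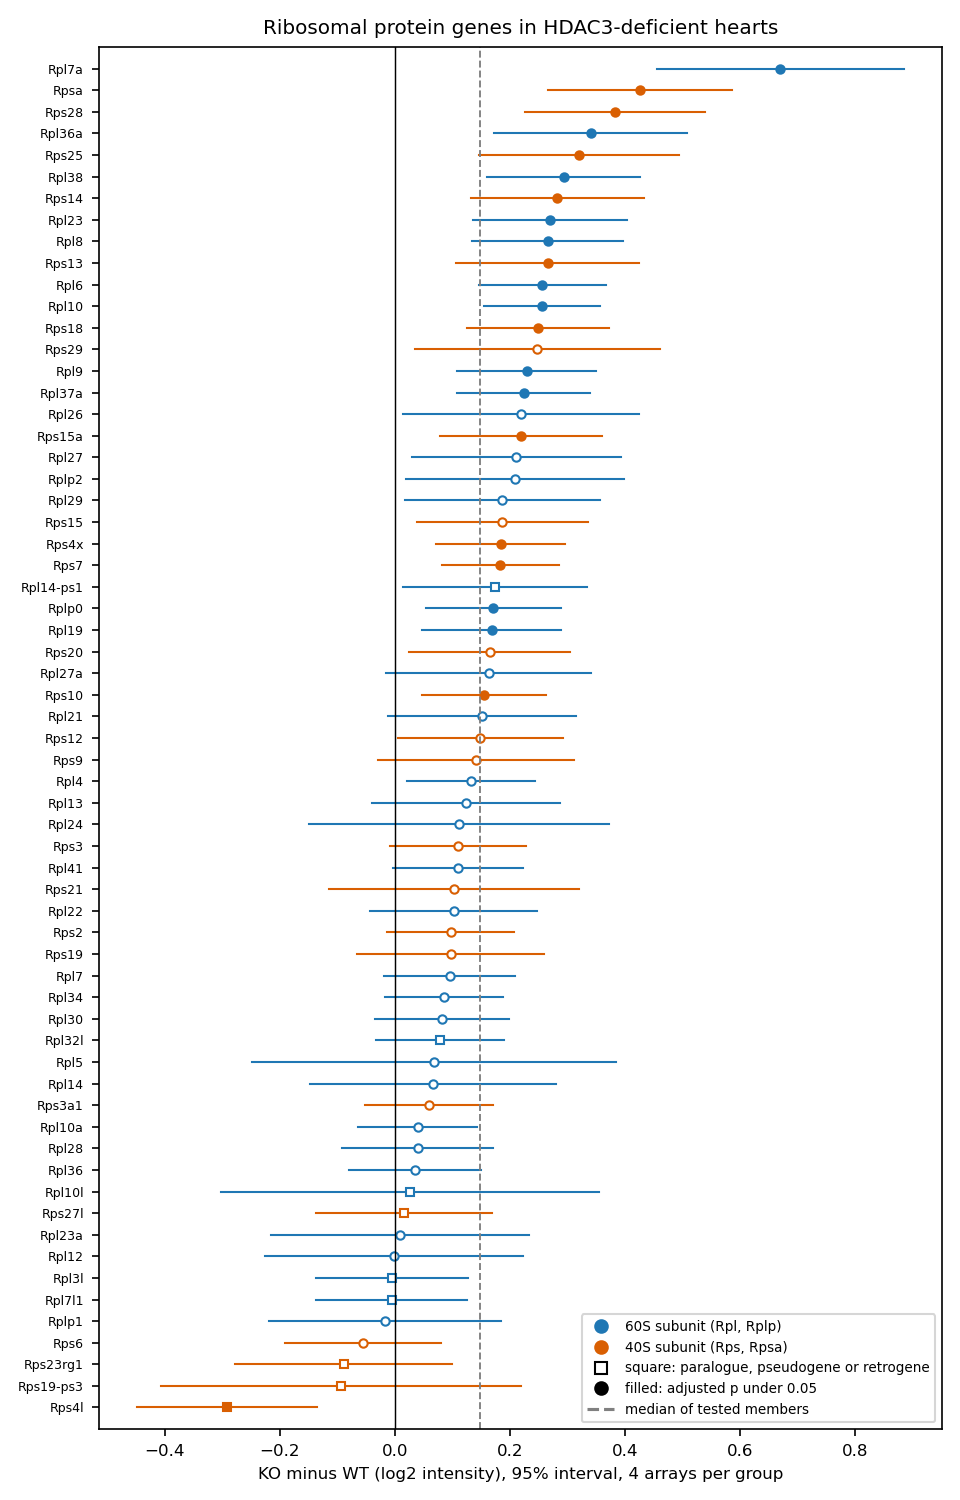
KO minus WT difference (log2 intensity) of the 63 tested ribosomal protein genes, ordered by size, with 95% intervals from 4 arrays per group. Blue marks the 60S and orange the 40S subunit, squares mark paralogues, pseudogenes and retrogenes, and filled symbols passed an adjusted p under 0.05. The 21 that rose ran from 0.16 to 0.67, and Rps4l alone fell.

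The same count was read within ranges of level, since bright genes are measured with less error. Between 8 and 10 on the log2 scale 8 of 26 members rose, against 14.2% of all genes in that range, and between 10 and 12 it was 9 of 14, against 19.1%. In these ranges the median difference of the members was 0.15 and 0.19, and that of all genes -0.03 in both. Between 12 and 14, 2 of 7 members rose, against 13.6%. Fewer of the dimmer members passed, 1 of 10 between 6 and 8 (11.4% of all genes) and 1 of 6 between 4 and 6 (6.61%).

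Both subunits contributed. Of the 33 canonical proteins of the 60S subunit, 11 rose (33.3%) and 0 fell, with a median difference of 0.15. Of the 21 canonical proteins of the 40S subunit, 10 rose (47.6%) and 0 fell, with a median of 0.18. Over all genes tested 10.8% were higher and 13.9% lower. Whether the subunits differ from each other was not tested. The 6 tested paralogues, genes related to a canonical member and often restricted to some tissues, had a median of 0.01, with 0 higher and 1 lower (16.7%). The 3 pseudogene or retrogene symbols had a median of -0.09, with none passing and 1 at an unadjusted limma p under 0.05. That 1 was Rpl14-ps1, the dimmest tested member (mean 4.71), with a difference of 0.17 (limma adjusted p = 0.109).

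In the 40S subunit the largest rise was in Rpsa, the 40S protein also known as a laminin receptor. Rpsa read 9.55, 9.37, 9.47 and 9.42 in WT replicates 1 to 4 and 9.86, 9.87, 9.74 and 10.06 in KO replicates 1 to 4. Every KO array lay above every WT array, and KO replicate 4 was the highest. The means were 9.45 ± 0.08 (SD, n = 4) and 9.88 ± 0.13, a difference of 0.43 (SE 0.07, 95% interval 0.27 to 0.59, limma adjusted p = 0.00171), or 34.4%.

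Rps28, a small protein of the 40S head, read 8.85, 8.90, 8.82 and 8.78 in WT and 9.15, 9.12, 9.19 and 9.42 in KO. The groups did not overlap, and KO replicate 4 stood above the other KO arrays. The difference was 0.38 (SE 0.07, limma adjusted p = 0.00283). None of the 5 single-symbol clusters of Rps28, this one included, lay at the gene's own locus.
Rps25, which is known for its part in translation from viral internal ribosome entry sites, read 9.23, 9.13, 9.21 and 9.26 in WT and 9.46, 9.35, 9.57 and 9.73 in KO. Again no KO array fell within the WT range. The difference was 0.32 (SE 0.08, limma adjusted p = 0.0128).

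Rps14, a protein of the 40S platform whose human counterpart lies in the region lost in 5q- syndrome, read 9.45, 9.54, 9.44 and 9.44 in WT and 9.69, 9.67, 9.70 and 9.95 in KO. The groups were apart, and KO replicate 4 and WT replicate 2 each stood above the rest of their group. The difference was 0.28 (SE 0.07, limma adjusted p = 0.0116).
Rps13 read 8.31, 8.22, 8.30 and 8.31 in WT and 8.50, 8.39, 8.57 and 8.74 in KO. The KO arrays spread more widely than the WT arrays and did not overlap them. The difference was 0.27 (SE 0.07, limma adjusted p = 0.0207), and without KO replicate 3 it was 0.26 with an adjusted p of 0.0510.
Rps18, a protein of the 40S head, read 10.70 to 10.84 in WT and 10.97 to 11.11 in KO. Its difference was 0.25 (SE 0.06, limma adjusted p = 0.00828).

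Among the 60S proteins, Rpl36a had the largest rise after Rpl7a, which is described with the cluster positions. Rpl36a read 9.77, 9.78, 9.84 and 9.79 in WT and 10.10, 10.13, 9.96 and 10.35 in KO. The WT arrays lay close together and all KO arrays were above them. The difference was 0.34 (SE 0.08, 95% interval 0.17 to 0.51, limma adjusted p = 0.00782).
Rpl38, a small 60S protein whose loss in mice alters the patterning of the axial skeleton, read 10.68, 10.60, 10.73 and 10.66 in WT and 10.91, 10.85, 11.01 and 11.07 in KO. The groups did not overlap. The difference was 0.29 (SE 0.06, limma adjusted p = 0.00504) in this cluster, which lies away from the gene, and -0.038 in the cluster at the gene itself.

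Rpl23, one of the ribosomal proteins that bind MDM2, read 10.49, 10.54, 10.55 and 10.47 in WT and 10.71, 10.71, 10.77 and 10.93 in KO. The lowest KO array was above the highest WT array. The difference was 0.27 (SE 0.06, limma adjusted p = 0.00801).
Rpl8, a protein near the peptidyl transferase centre, read 9.01, 8.91, 9.04 and 8.87 in WT and 9.19, 9.13, 9.29 and 9.28 in KO. Here KO replicates 3 and 4 were alike and highest. The difference was 0.27 (SE 0.06, limma adjusted p = 0.00817).

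Rpl6 read 10.99, 10.91, 10.91 and 10.92 in WT and 11.17, 11.11, 11.23 and 11.24 in KO, again without overlap. The difference was 0.26 (SE 0.05, limma adjusted p = 0.00357).
Rpl10, which joins the 60S subunit late in its assembly, read 11.93, 11.92, 11.91 and 11.90 in WT and 12.16, 12.13, 12.16 and 12.24 in KO. The 4 WT arrays were nearly equal and the KO arrays lay well above them. The difference was 0.26 (SE 0.05, limma adjusted p = 0.00224), and with all clusters of the gene averaged it was 0.17 with an adjusted p of 0.112.
The 9 other members that rose, Rps18 among them, differed by 0.16 to 0.25. Rpl9 (0.23), Rpl37a (0.22), Rps15a (0.22), Rps4x (0.18), Rps7 (0.18), Rplp0 (0.17), Rpl19 (0.17) and Rps10 (0.16) were the rest, several of them named here after their values were seen. Some of these calls lay near the threshold. Rpl19 (limma adjusted p = 0.0455) passed in 6 of 18 alternative settings and lost its call without any 1 array except KO replicate 2 (adjusted p 0.0579 to 0.110), after quantile normalisation (0.0508), after median centring (0.0758), with dim genes tested too (0.0671) and with its clusters averaged (0.363). Rps10 (limma adjusted p = 0.0395) passed in 8 and lost its call without any 1 array except KO replicate 1 (0.0579 to 0.0998), after median centring (0.0817) and with dim genes tested too (0.0619). Rps15a (limma adjusted p = 0.0280) passed in 11 and lost its call without WT replicate 1, 2 or 3 or KO replicate 2 or 3 (0.0615 to 0.0756) and after median centring (0.0552). Rps7 lost its call with its clusters averaged (0.13, adjusted p = 0.152).

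The 3 stalk proteins, which recruit the elongation factors to the 60S subunit, gave different values. Rplp0, the base of the stalk, read 11.74, 11.82, 11.67 and 11.77 in WT and 11.92, 12.005, 11.89 and 11.87 in KO. The groups did not overlap, by a narrow margin. The difference was 0.17 (SE 0.05, limma adjusted p = 0.0387). Leaving out any of WT replicates 1, 3 and 4 or KO replicates 1, 2 and 3 ended that call, with adjusted p from 0.0584 to 0.112, as did centring the arrays on their medians (0.0797) and testing dim genes too (0.0580).
Rplp1 read 11.73, 11.98, 11.95 and 11.93 in WT and 11.997, 11.99, 11.90 and 11.63 in KO. KO replicate 4 was the lowest of all arrays, the opposite of its place for most members. The difference was -0.02 (95% interval -0.22 to 0.18, limma adjusted p = 0.922).
Rplp2 read 6.69, 6.56, 6.59 and 6.67 in WT and 6.78, 6.77, 6.70 and 7.11 in KO. The lowest KO and the highest WT array were nearly equal, and KO replicate 4 stood above the rest. The difference of 0.21 (SE 0.09) did not pass, with a limma adjusted p of 0.105.

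Several well-known members did not pass the test. Rps6, the substrate of the S6 kinases, read 13.18, 13.16, 13.14 and 13.02 in WT and 13.06, 13.06, 13.19 and 12.96 in KO, with overlapping groups and a difference whose 95% interval ran from -0.19 to 0.08 (limma adjusted p = 0.583). Rpl5, which binds 5S rRNA and MDM2, read 9.88, 9.90, 9.94 and 10.10 in WT and 10.04, 9.70, 10.49 and 9.86 in KO. Its KO arrays were both the lowest and the highest of the 8. The interval of its difference was -0.25 to 0.38 (limma adjusted p = 0.785). These values are from the brightest Rpl5 cluster, and no Rpl5 cluster lay at the gene's own locus. A cluster nearly as bright (mean 9.88 against 9.99) was higher by 0.22 (limma adjusted p = 0.0172). Another Rpl5 cluster differed by 0.21 (limma adjusted p = 0.0942). Rps19, which is mutated in Diamond-Blackfan anaemia, differed by 0.10 (95% interval -0.06 to 0.26, limma adjusted p = 0.390). Rpl22 differed by 0.10 (limma adjusted p = 0.305) and Rpl36 by 0.04 (limma adjusted p = 0.681). The 41 members that did not pass had a median difference of 0.10, and 34 of them were above 0.

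The 1 member that fell was Rps4l, an autosomal gene closely related to the X-linked Rps4x. Rps4l read 6.78, 6.82, 6.67 and 6.74 in WT and 6.42, 6.44, 6.33 and 6.65 in KO. The groups did not overlap, although KO replicate 4 came close to the lowest WT array. The difference was -0.29 (SE 0.07, 95% interval -0.45 to -0.13, limma adjusted p = 0.0125). Rps4x read 9.86, 9.89, 9.95 and 9.91 in WT and 10.04, 10.06, 10.06 and 10.18 in KO, all KO arrays being higher. Rps4x rose by 0.18 (SE 0.05, limma adjusted p = 0.0221), and without WT replicate 1 the adjusted p was 0.0616.

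Whether a paralogue changed unequally from its parent was tested in the 3 pairs with both genes measured, by a two-sided exact permutation test over arrays whose smallest possible p is 0.0286. Rps4l minus Rps4x changed by -0.48 between the groups (exact permutation p = 0.0286, 0.0857 after Benjamini-Hochberg adjustment over the pairs). Rpl7l1 minus Rpl7 changed by -0.10 (exact permutation p = 0.0571, adjusted 0.0857). Rpl7 was read here by a cluster away from the gene, which differed by 0.10, and the cluster at the gene itself differed by -0.047 (SE 0.20). The pair was not tested with that cluster. Rpl10l, a copy of Rpl10 known for its work in spermatogenesis, changed by -0.23 relative to Rpl10 (exact permutation p = 0.229, adjusted 0.229). All 4 KO values of the Rps4l pair lay below all 4 WT values, but over 3 pairs 1 such pair alone cannot go below an adjusted 0.0857, so the design decided that it missed 0.05.

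Rpl3l, a Rpl3 paralogue made in heart and skeletal muscle, read 9.70, 9.54, 9.63 and 9.55 in WT and 9.58, 9.49, 9.67 and 9.66 in KO. The groups overlapped fully, and the difference was -0.01 (95% interval -0.14 to 0.13, limma adjusted p = 0.966). Rps27l, a p53 target, differed by 0.02 (95% interval -0.14 to 0.17) and Rpl7l1 by -0.01 (95% interval -0.14 to 0.13). Rpl10l, near the floor, differed by 0.03 (95% interval -0.30 to 0.35).

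KO replicate 4 was the highest of all 8 arrays for 37 of the 63 members. In the lists described below it was the highest for 12 of 90 ribosome biogenesis genes and 0 of 35 initiation factor genes. It was also the highest for 5 of 11 elongation and termination factor genes and 4 of 22 genes that control TOP mRNAs. The share over all genes is not given here. Averaged over members and set relative to the WT mean, KO replicates 1 to 4 read 0.13, 0.10, 0.13 and 0.23, and the WT arrays 0.01, 0.01, -0.00 and -0.02. Every KO array thus lay above every WT array, and replicate 4 lay apart from the other KO arrays. The 40S proteins gave 0.14, 0.13, 0.18 and 0.30 in KO and the 60S proteins 0.15, 0.13, 0.14 and 0.23. Without KO replicate 4, 20 members rose (11.4% of all genes), 19 of them among the 21, and the median difference was 0.12. Without WT replicate 1, 16 rose (8.78%) and 1 fell (11.7%).

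**Figure D2:**
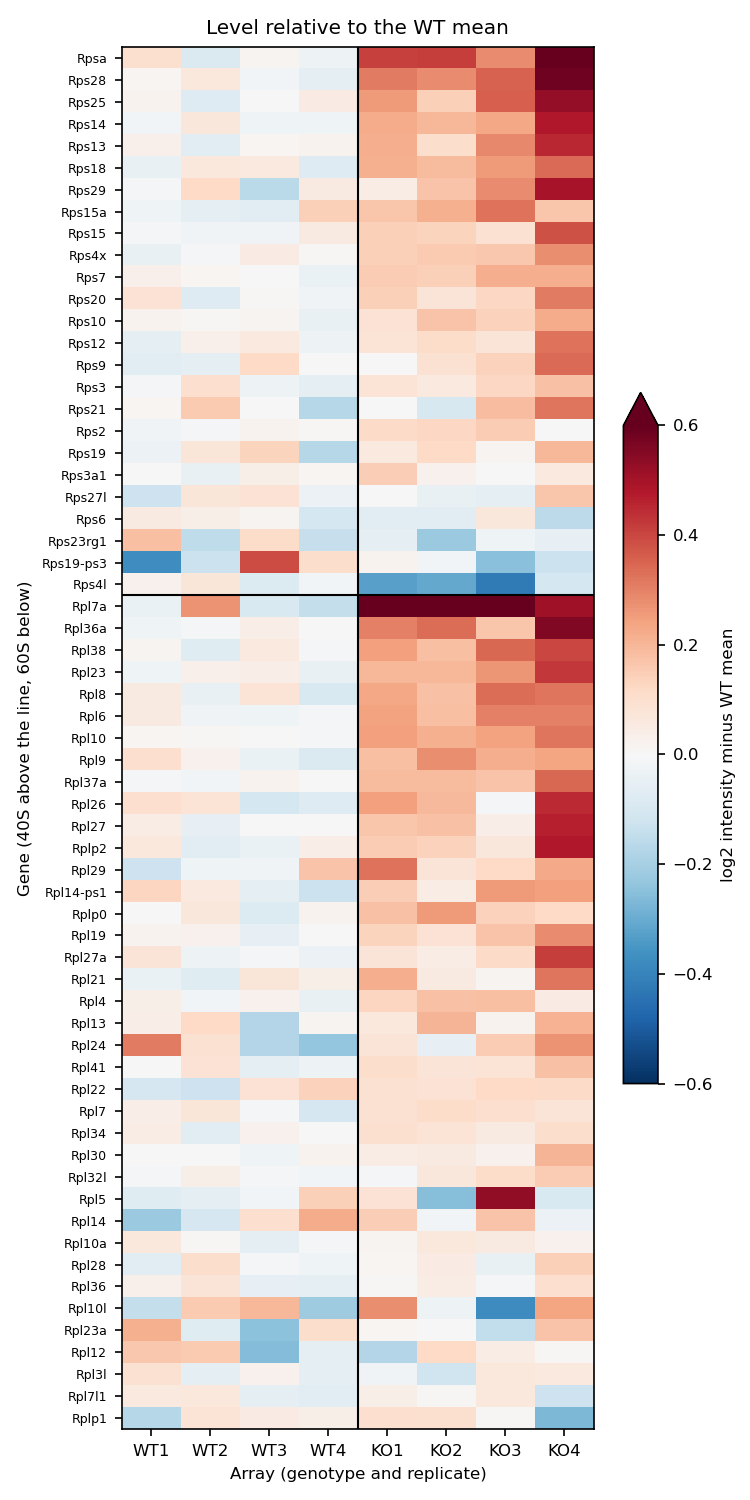
Level of each tested ribosomal protein gene (rows) on each of the 8 arrays (columns), as log2 intensity minus the gene's WT mean, with red above and blue below it. Most rows are red in the 4 KO columns, and KO replicate 4 is the highest array for 37 of 63 rows.

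Many members are read by more than 1 cluster, and some clusters lie away from the gene itself. Clusters of this array are numbered in genome order, so that the genes on either side of a cluster place it: 97.5% of genes with a single cluster fell at their own locus in this way (5 neighbours on each side, within 3 Mb). The brightest cluster lay at the gene's own locus for 33 of the 64 members and elsewhere for 31. Where a cluster lies elsewhere, its probes and the gene's own may read the same near-identical mRNA or a transcript of the other locus, which cannot be told apart here.

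Of the 32 tested members read at their own locus, 7 rose (21.9%) and 1 fell (3.12%), with a median difference of 0.10. Of the 31 read elsewhere, 14 rose (45.2%) and 0 fell, with a median of 0.17. Over all genes tested 10.8% were higher and 13.9% lower. Rpl7a shows the limit: its brightest single-symbol cluster, away from the gene and near the floor, read 4.36, 4.67, 4.31 and 4.26 in WT and 5.22, 5.07, 5.07 and 4.91 in KO. The difference of 0.67 (SE 0.10, limma adjusted p = 0.000650) was without overlap and the only one over 1.5-fold, but it rests on a dim cluster. Brighter clusters list Rpl7a together with another symbol and were not used for it, so these values do not give the level of Rpl7a mRNA. The gene was below the floor, and so not tested, with the floor at the median level and with its clusters averaged.

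For 22 members both a brightest cluster elsewhere and a cluster at the own locus were tested, and the differences had the same sign in 18. The median was 0.18 elsewhere and 0.12 at the own locus, with 7 members higher in both, 4 only elsewhere and 1 only at the own locus. At its own locus Rpsa differed by 0.36 (SE 0.04, limma adjusted p = 0.000251), Rps18 by 0.42 (adjusted p = 0.00199), Rps14 by 0.39 (adjusted p = 0.00930) and Rpl9 by 0.35 (adjusted p = 0.00259). Rps4x (0.26), Rps13 (0.23) and Rpl6 (0.21) also passed at their own loci. Rpl38 did not: its own cluster differed by -0.038 (limma adjusted p = 0.761), and those of Rpl23 (0.13, adjusted p = 0.263), Rpl19 (-0.21, adjusted p = 0.194) and Rps7 (0.14, adjusted p = 0.188) did not pass either. With the own-locus cluster read for every gene, an alternative chosen after seeing the data, 15 of 54 members rose (10.8% of all genes) and 1 fell, and the median was 0.11.

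**Figure D3:**
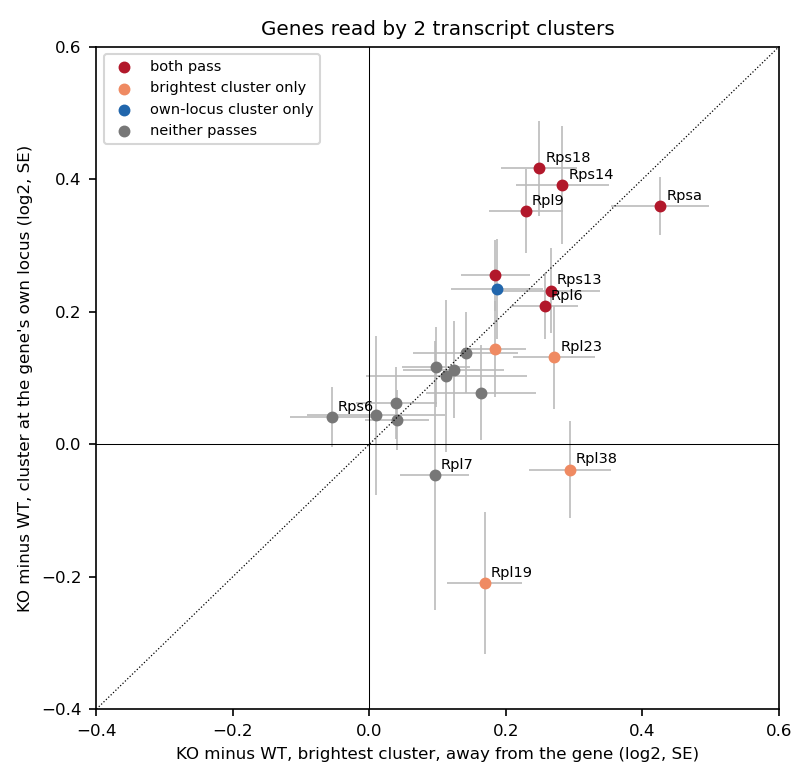
KO minus WT difference (log2, bars are SE) of 22 ribosomal protein genes, read by the brightest cluster away from the gene (horizontal) and by the cluster at the gene's own locus (vertical). Colours show where the difference passed an adjusted p under 0.05, and the dotted line marks equal differences. In 18 of the 22 both differences have the same sign, and 7 passed in both.

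Over all 183 tested clusters that name a member alone, 57 were higher and 1 was lower, with a median of 0.15 (10.8% and 13.7% over all such clusters of the array). Rpl9 had 8 clusters, all higher. No member had clusters that passed in opposite directions.

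The start windows were compared with those of all 27025 genes in the RefSeq table, of which 49 of the 63 tested members could be matched. A pyrimidine run (C or T) of at least 6 bases within 15 bases of the start was present in 29.1% of all genes and in 21 of 43 canonical members (48.8%). It was present in 7 of the 19 canonical members that rose (36.8%) and in 14 of the 24 that did not pass (58.3%). Runs on either side of the first listed start were counted, so these counts do not say which mRNAs begin with a TOP motif. The core of ETS-family sites, CCGGAAG or CTTCCGG on the other strand, was found within 250 bases before to 50 after the start in 9.12% of all genes and 16 of 43 canonical members (37.2%). It was present in 8 of the 19 that rose (42.1%) and 8 of the 24 that did not pass (33.3%). The YY1 letters AAGATGGC or GCCATCTT were found in 1 of 43 (2.88% of all genes), and the TATA letters TATAAA or TTTATA in 4 of 43 (14.2% of all genes). These are matches of letters, not binding sites, and no difference between the members that rose and the rest was tested. The sequences are those of each gene's own locus, whereas 14 of the 21 members that rose were read by a cluster elsewhere. Of these, Rpl38, Rpl23, Rpl19 and Rps7 did not pass at their own loci, so the split by call does not always describe the locus shown.
The 250 bases before the Rps18 start are shown because they hold the ETS core 2 times, at -157 and -75 from the start, in capitals. This is not particular to Rps18: Rps21, which did not pass, also holds the core 2 times, at -88 and -26.
Rps18, chr17:33955666-33955915, minus strand: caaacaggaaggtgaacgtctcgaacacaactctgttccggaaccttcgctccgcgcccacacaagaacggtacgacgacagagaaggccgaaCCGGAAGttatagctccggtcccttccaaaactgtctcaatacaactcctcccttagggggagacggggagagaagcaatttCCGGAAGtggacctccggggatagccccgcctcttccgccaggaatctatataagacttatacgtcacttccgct

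Other genes of ribosome production and translation were read from the same fit, in which 10.8% of all genes were higher and 13.9% lower. Differences between these lists and the ribosomal protein genes were not tested. Of 90 tested genes of ribosome biogenesis, which make and process rRNA and assemble the subunits, 5 were higher (5.56%) and 13 lower (14.4%), with a median of -0.03. Polr1e, a subunit of RNA polymerase I, fell by 0.76 (SE 0.09, limma adjusted p = 0.000252), Imp3 fell by 0.45 (adjusted p = 0.00365) and Noc3l fell by 0.27 (adjusted p = 0.00345). Of 35 initiation factor genes, 6 were higher (17.1%) and 3 lower (8.57%), with a median of -0.00. Eif1a rose by 0.23 (limma adjusted p = 0.00593), Eif4g2 rose by 0.20 (adjusted p = 0.0107) and Eif3b fell by 0.23 (adjusted p = 0.00643).

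Of 11 elongation and termination factor genes, several of which also carry 5′ TOP motifs, 3 were higher (27.3%) and 1 lower (9.09%), with a median of 0.04. Eef1b2 rose by 0.31 (limma adjusted p = 0.00158). Etf1 rose by 0.21 (adjusted p = 0.0195), and without WT replicate 3, KO replicate 1 or KO replicate 3 its adjusted p was 0.0563, 0.0551 and 0.0550. Abce1 fell by 0.21 (adjusted p = 0.0224), and without WT replicate 1 or KO replicate 1 its adjusted p was 0.0606 and 0.0581. Of 22 genes that control TOP mRNAs or their transcription, 1 was higher (4.55%) and 5 were lower (22.7%), with a median of -0.04. Their differences ran from -0.32 to 0.63, so the largest change was a rise. Tsc2 (-0.30), Larp1, which binds the TOP motif (-0.28), and Tia1 (-0.32) were among those that fell, with limma adjusted p of 0.000902, 0.00183 and 0.00294.
Fau, which codes for the 40S protein eS30 and does not carry an Rps name, read 11.01, 10.98, 10.91 and 10.94 in WT and 11.10, 11.13, 11.08 and 11.26 in KO. The groups did not overlap. The difference was 0.18 (SE 0.05, limma adjusted p = 0.0356), and leaving out any of WT replicates 2, 3 and 4 or KO replicates 1, 2 and 4 ended the call, with adjusted p from 0.0521 to 0.0896, as did centring the arrays on their medians (0.0525) and testing dim genes too (0.0530).

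Markers of cell types were also read from this fit. Over all genes tested 10.8% were higher and 13.9% lower. Of 22 tested macrophage markers 21 were higher in KO and 0 lower, with a median of 1.28, and their summed intensity was 4315 to 4944 in WT and 9886 to 12326 in KO. Relative to the WT mean the macrophage list read 1.18, 1.20, 1.14 and 0.98 in KO replicates 1 to 4. In WT replicates 1 to 4 it read -0.07, 0.09, 0.01 and -0.02. Fibroblast markers had 4 of 10 higher and 0 lower (summed intensity 8812 to 9580 in WT, 9494 to 10755 in KO). Lymphocyte markers had 2 of 6 higher and 0 lower (351 to 411 in WT, 454 to 483 in KO), with a median of 0.05. The higher ones were Ptprc (1.04), which other white blood cells also make, and Cd4 (0.42). Endothelial markers had 1 of 10 higher and 0 lower (8421 to 10034 in WT, 8923 to 9270 in KO). The list of red cell and platelet markers had 1 of 5 higher and 1 lower (713 to 747 in WT, 896 to 1044 in KO), with a median of 0.02. The higher one was the platelet gene Pf4 (1.35) and the lower one the red cell gene Alas2 (-0.33). Heart muscle markers had 0 of 14 higher and 4 lower (99580 to 104370 in WT, 97954 to 99686 in KO). No marker of these lists was at 0. The part of these cells in the ribosomal protein values was not tested.

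**Figure D4:**
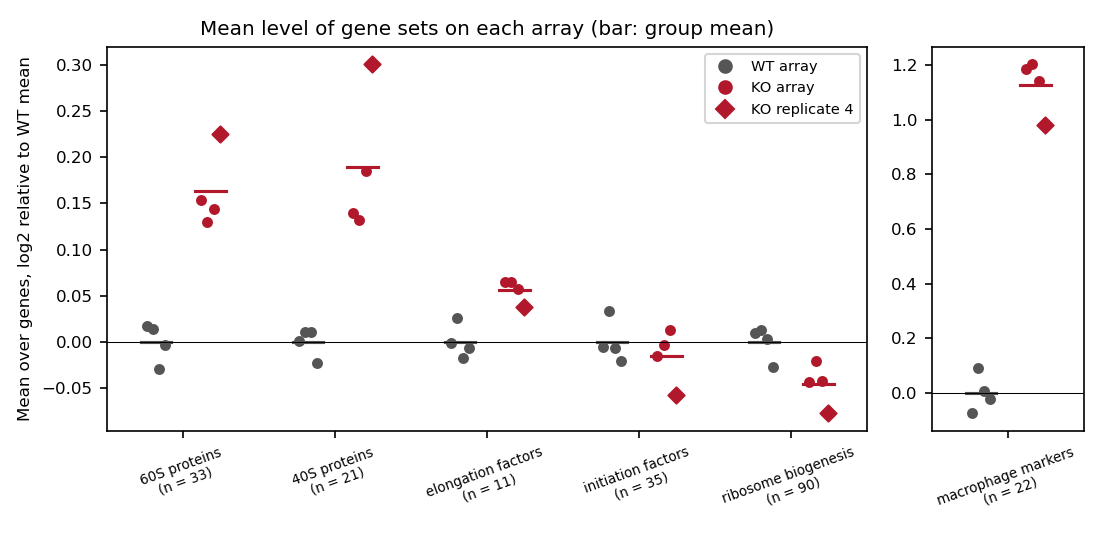
Mean level of gene sets on each array (log2, relative to the mean of the WT arrays), with grey WT points, red KO points, a diamond for KO replicate 4 and a bar for each group mean. On the KO arrays the canonical 60S proteins sit at 0.13 to 0.23 and the canonical 40S proteins at 0.13 to 0.30. The genes of ribosome biogenesis sit at -0.08 to -0.02 and the macrophage markers at 0.98 to 1.20.

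Ribosomal protein genes also serve as reference genes for quantitative PCR. Of 17 tested genes in common use as references, 7 were higher (41.2%) and 1 lower (5.88%), with a median of 0.17. Over all genes tested 10.8% were higher and 13.9% lower. Several of the 17 are ribosomal protein genes, so the counts and the median partly repeat values given above. Among the others, Hprt differed by 0.04 (limma adjusted p = 0.683) and Tbp by 0.08 (limma adjusted p = 0.334), named here after their values were seen. Tfrc, the transferrin receptor, rose by 0.87 (limma adjusted p = 0.00168), Gusb rose by 0.40 (adjusted p = 0.00265) and Sdha fell by 0.26 (adjusted p = 0.00178).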

How the data were processed

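Per the labels, total RNA of 8 hearts was biotin-labelled and hybridised, 1 Affymetrix Mouse Gene 1.0 ST array per mouse. The labels call the mice biological replicates. The deposited table holds 27541 transcript clusters as intensity on a linear scale. Partek and RMA were used by the authors, per the submitters' processing notes. The sources used here do not name the annotation build or any rescaling. The array annotation names 1 gene for 21631 clusters, several for 1317 and none for 4593.

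Values were taken as log2, the brightest single-symbol cluster was kept per gene, and genes with a mean below the 25th percentile were left out. KO and WT were compared with limma 3.58.1 (lmFit, eBayes, R 4.3.3, 6 residual degrees of freedom) and Benjamini-Hochberg adjustment over 14950 genes, after tests on simulated data. Hybridisation gives no counts, so the number of arrays limits the precision. No 2 arrays were identical.

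Members and lists were chosen with earlier results of these data known. Named were Hdac3, members past adjusted p 0.05 (up to 12 in each direction by size), paralogue pairs, stalk and well-known proteins, the 3 brightest and 3 dimmest members, and up to 3 genes of each other list by p. Alternatives changed scaling, filter, variance model, array weights, cluster choice, offset, threshold, replicate block and left-out array. Cluster positions came from neighbours in ID order. Motifs were searched in the RefSeq table of GRCm38.p6, at the first listed start. Figures were drawn with Python 3.11.15 and matplotlib 3.10.9, and the exact permutation tests were run in the same Python.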

Additional observations from a re-analysis of the deposited data

Results flagged for a closer look

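In 8 of the 124 groups of 4 arrays examined (6.45%), 1 array lay far from the other 3 relative to the group's range; chance marks about 1 in 20 groups. KO replicate 4 was the far array in 5 of them. It was highest for Rps14 (9.95, others 9.67 to 9.70), Rps4x (10.18, others 10.04 to 10.06) and Eef1b2 (9.78, others 9.67 to 9.68), and lowest for Hdac3 (8.50, others 8.59) and for the fibroblast gene Postn (9.67, others 10.13 to 10.21). In WT, replicate 2 was highest for Rps14 (9.54, others 9.44 to 9.45), replicate 4 was lowest for Imp3 (8.98, others 9.14 to 9.16) and replicate 1 was lowest for Lum (8.59, others 8.81 to 8.86).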

How the results depend on the processing

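At an adjusted p under 0.01, 10 members were higher (6.43% of all genes) and 0 lower. In the other alternatives the count of members higher stayed within 1.5 times 21, and 1 was lower in each. The count ran from 15 with own-locus clusters (10.8% of all genes) to 29 with several-symbol clusters counted by ribosomal protein symbol (10.8%). These alternatives at the ends of the range tested other sets of members than the main setting, so their counts have different bases. Centring the arrays on their medians left 17 higher (9.07%) and moved the median of all genes to -0.03. Leaving out 1 array gave 16 to 20 higher (8.1% to 11.4% of all genes), 1 lower and a median of 0.12 to 0.17. Of the 21 members higher, 12 passed in all 18 planned settings. Read at its own locus, Rpl38 changed sign to -0.038; the cause was not tested. With 1 array left out, Rps4l minus Rps4x ranged from -0.52 to -0.44, Rpl7l1 minus Rpl7 from -0.12 to -0.067 and Rpl10l minus Rpl10 from -0.32 to -0.10; without KO replicate 3 the first 2 pairs had an adjusted exact permutation p of 0.0429. With the replicate number as a block, 18 members were higher (9.81%), 1 was lower and the median was 0.15. The block ended the calls of Rps15a (adjusted p 0.0621), Rpl19 (0.0798), Rps10 (0.0887), Fau (0.0651) and Etf1 (0.0595). The labels do not say that numbers pair the mice, and deviations of same-numbered arrays correlated at -0.04, 0.03, -0.04 and 0.08. Values at 2 loci of near-identical sequence cannot be separated.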

Other observations

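One cluster away from the Rpl13 gene that names Rpl13 alone, singled out after its values were seen, was higher by 1.34 in KO (SE 0.32, limma adjusted p = 0.0122). Its mean level of 4.64 lay near the floor, and the brightest Rpl13 cluster, at 8.79, differed by 0.12 (adjusted p = 0.267). Of the 5 single-symbol clusters of Rps28, 4 passed as higher, the largest at 0.69 (adjusted p = 0.00114). None of the 5 lay at the gene's own locus.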
